A study of Chromochloris zofingiensis with 6 samples.

Results

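The genes described here are those of chlorophyll biosynthesis in *Chromochloris zofingiensis*, a unicellular green alga that makes chlorophyll a and b in its chloroplast. They were taken from the section for this pathway in the study's own photosynthesis gene list, each identifier counted once, which gave 30 genes for 20 steps or subunits out of 15037 genes listed in at least 1 library. All 30 were found in all 6 libraries, none was listed at 0 anywhere, none carried the same values as another gene, and all 30 passed the filter on low values (an average of 1 FPKM or more at 0 h or at 6 h). Gene names are those of that list.

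The study sequenced poly-A RNA of strain ATCC30412 from 3 replicate cultures at 0 h and 3 at 6 h after the cells, taken in exponential phase, had been spun down, washed and put into fresh Kuhl medium with 200 mM NaCl. No library of cells held for 6 h without salt was analysed here, so salt, time, handling and fresh medium cannot be told apart. The cultures were lit continuously and aerated with CO2-enriched air, and the sample labels and the methods give slightly different column volumes and light levels. Values are FPKM, a fragment count divided by the length of the gene model and by the mapped fragments of its library.

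Chlorophyll is a tetrapyrrole. In plants and green algae its synthesis starts from glutamate carried on a transfer RNA, passes through 5-aminolevulinate and a series of porphyrinogens to protoporphyrin IX, and there divides: insertion of iron leads to heme, and insertion of magnesium commits the ring to chlorophyll. Several intermediates are strongly phototoxic when free, and the pathway is known for control at the formation of 5-aminolevulinate and at the magnesium branch point. The end product is bound by the light-harvesting and reaction-centre proteins.

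At 6 h the transcripts of most of this pathway were down-regulated. Of the 30 genes, 21 (70%) were called lower at 6 h, 2 were called higher and 7 were not called, where a call required an adjusted p under 0.05 in limma, with Benjamini-Hochberg adjustment over the 13886 genes tested, and a log2 fold change of 1 or more in either direction. Of all genes tested, 26.6% were called lower and 20.0% higher. An unadjusted p under 0.05 was found for 26 of the 30 genes and for 71.0% of all genes tested. The median log2 fold change of the 30 genes was -3.23 (range -6.62 to 2.70), beside -0.04 for all genes tested. A fall of at least 3 on the log2 scale was called for 17 of the 30 genes, beside 10.3% of all genes tested. Log2 fold changes were computed on scaled FPKM plus 0.1 and understate the change of genes near that value. In a culture, fewer cells with the transcript and less transcript per cell cannot be told apart.

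The FPKM of the 30 genes added up to 2279, 2293 and 2386 in the 0 h libraries and to 583, 554 and 574 in the 6 h libraries, so that 24.6% of the 0 h sum was left. Sums, percentages left and changes in mean FPKM are given on deposited FPKM, without the scaling used for log2 fold changes. The scaling lifts 6 h over 0 h, so falls are smaller on scaled FPKM. On scaled FPKM the log2 ratio of this sum was -1.71. The groups were far apart in this sum and varied little within themselves, 2319 ± 58.1 against 570.1 ± 14.9 FPKM (SD, n = 3 each). At 6 h, differences between replicates partly offset each other in the sum. The genes from 5-aminolevulinate to protoporphyrin IX held 223, 191 and 157 FPKM, and those from chlorophyllide to chlorophyll 57.7, 60.3 and 110.7 FPKM. The SD of the sum is therefore no measure of the spread of single genes. Each 0 h library held all 30 genes at 10 FPKM or more, whereas only 11 genes reached 10 FPKM in all 3 libraries at 6 h and 16 were below 10 in all 3. Ranked by mean FPKM among all genes tested, the 30 genes lay between percentiles 28.6 and 96.9 at 0 h (median 78.3) and between 6.39 and 85.1 at 6 h (median 25.4). The 6 libraries did not overlap between the times, with all 6 h values lower, for 24 of the 30 genes, beside 46.1% of all genes tested, and with all 6 h values higher for 2, beside 27.2%. The median of the 30 genes lay 3.20 below the median of all genes on the log2 scale under each of the 4 ways of scaling the libraries. The 4 values had to be alike, since a scaling moves all genes by nearly the same amount.

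**Figure D1:**
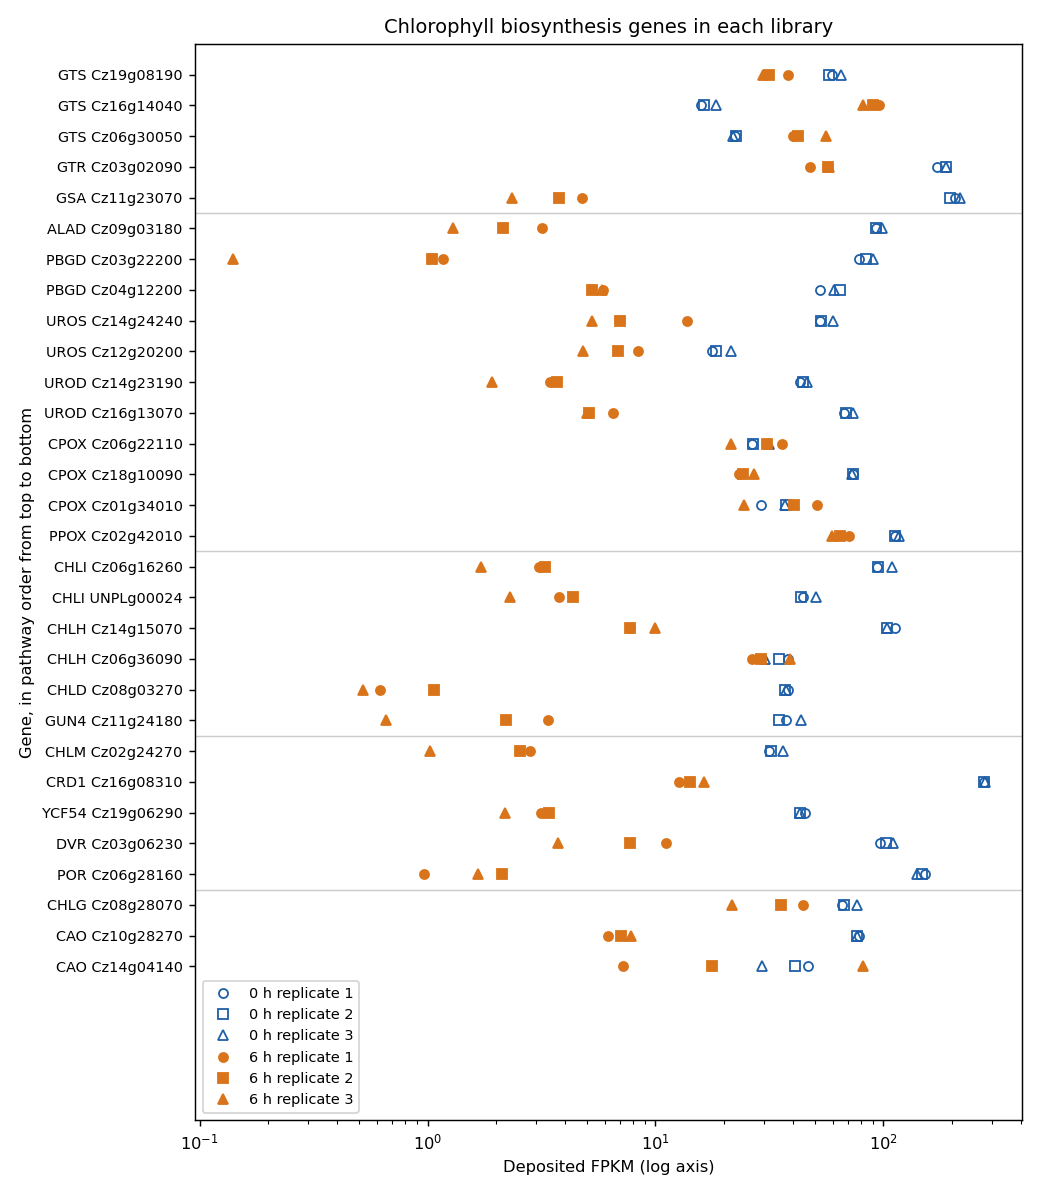
Deposited FPKM (horizontal log axis) of the 30 chlorophyll biosynthesis genes in each library, in pathway order from top to bottom, with open blue symbols for the 3 libraries at 0 h and filled orange symbols for the 3 at 6 h. For 24 genes the 6 h symbols lie wholly to the left of the 0 h symbols, and for the tRNA synthetase genes Cz16g14040 and Cz06g30050 wholly to the right. Grey lines divide the 5 segments of the pathway.

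The first segment, glutamate to 5-aminolevulinate, had 5 genes, of which 2 were called higher and 2 lower. Of all genes tested, 20.0% were called higher and 26.6% lower. Glutamyl-tRNA synthetase (GTS) charges the transfer RNA with glutamate and also serves protein synthesis. GTS was the one step of the list with genes called higher. The list labels Cz16g14040 and Cz19g08190 as non-discriminatory glutamyl-glutaminyl tRNA synthetases and Cz06g30050 as a glutamyl-tRNA synthetase. Which of the 3 serves the formation of 5-aminolevulinate was not tested. Cz16g14040 stood at 15.9, 16.4 and 18.5 FPKM at 0 h and at 95.2, 90.0 and 81.6 FPKM at 6 h. It was 5.26-fold higher in mean FPKM, and its log2 fold change of 2.70 ± 0.12 (SE) was called (adjusted p = 1.41e-05). Cz06g30050 had 22.4, 22.5 and 21.9 FPKM at 0 h and 40.3, 42.4 and 55.8 FPKM at 6 h, again with all 6 h libraries above all 0 h libraries. Its log2 fold change was 1.34 ± 0.15 (adjusted p = 0.000377), and it fell below the limit of 1 under 2 other scalings (0.90 with TPM and 0.99 with upper-quartile scaling). The third gene, Cz19g08190, the most abundant of the 3 at 0 h, had 59.7, 57.9 and 65.0 FPKM at 0 h against 38.3, 31.5 and 29.8 FPKM at 6 h. These values did not overlap, yet the log2 fold change of -0.57 ± 0.14 was within the limit and was not called (adjusted p = 0.0107).

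Glutamyl-tRNA reductase (GTR), the enzyme at which 5-aminolevulinate formation is chiefly controlled in plants, and glutamate-1-semialdehyde aminotransferase (GSA), which makes 5-aminolevulinate, were each encoded by 1 gene, and both fell. GTR (Cz03g02090) had 173, 188 and 188 FPKM at 0 h and 47.7, 57.0 and 57.8 FPKM at 6 h, which left 29.7% of the mean. On the log2 scale it fell by 1.45 ± 0.11 (adjusted p = 7.41e-05). GSA (Cz11g23070) was the second most abundant transcript of the pathway at 0 h, with 206, 196 and 218 FPKM, and had only 4.75, 3.77 and 2.35 FPKM at 6 h. It fell by 5.55 ± 0.26 (adjusted p = 1.66e-05), and 1.75% of its 0 h mean was left. Within a library the ratio of GTR to GSA lay between 0.836 and 0.956 at 0 h and between 10.04 and 24.6 at 6 h, so the order of these adjoining steps was turned around. This ratio does not depend on the scaling between libraries, but its size at 6 h is uncertain with GSA at 2.35 to 4.75 FPKM. Like the ratios between other steps below, it was chosen after the values had been seen.

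The second segment leads from 5-aminolevulinate to protoporphyrin IX and is shared with heme. It had 11 genes, of which 8 (72.7%) were called lower and none higher, beside 26.6% and 20.0% of all genes tested. The median log2 fold change was -2.48. The deepest falls of the segment were in ALAD and in 1 of the PBGD genes. ALAD, 5-aminolevulinate dehydratase (Cz09g03180), which joins 2 molecules of 5-aminolevulinate into porphobilinogen, had 92.4, 92.7 and 98.3 FPKM at 0 h and 3.17, 2.14 and 1.29 FPKM at 6 h. Its fall was 42.9-fold in mean FPKM, with a log2 fold change of -5.14 ± 0.32 (adjusted p = 4.01e-05).

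PBGD, porphobilinogen deaminase, which links porphobilinogen units into a linear tetrapyrrole, was encoded by 2 genes. Cz03g22200 had 78.2, 84.3 and 90.5 FPKM at 0 h and 1.17, 1.05 and 0.14 FPKM at 6 h. Its log2 fold change was -6.62 ± 0.66 (adjusted p = 0.000259), with the replicate 3 library at 6 h far below the other 2. Without that library it was -5.82, and with a pseudocount of 1 it was -5.41. It was the lowest of the 30 log2 fold changes as computed here, but in both of these settings that of POR was lower (-6.26 and -5.61). Cz04g12200 had 52.6, 64.8 and 60.9 FPKM at 0 h and a steady 5.86, 5.27 and 5.8 FPKM at 6 h. It fell by 3.06 ± 0.13 (adjusted p = 1.42e-05) and made up 88.1% of the PBGD transcripts left at 6 h, against 41.3% at 0 h.

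Uroporphyrinogen III synthase (UROS) closes the ring, and uroporphyrinogen decarboxylase (UROD) takes the first step after the branch to siroheme. The UROS gene Cz14g24240 had 52.9, 53.4 and 60.3 FPKM at 0 h and 13.8, 6.98 and 5.24 FPKM at 6 h, a log2 fold change of -2.48 ± 0.36 (adjusted p = 0.00129). The UROS gene Cz12g20200 had 17.6, 18.4 and 21.5 FPKM at 0 h and 8.4, 6.87 and 4.81 FPKM at 6 h. It was the weakest of the 21 called falls, -1.23 ± 0.24 (adjusted p = 0.00448), and without the replicate 3 library at 6 h it stood at -0.998 and was not called. Both UROD genes fell to a like degree: Cz14g23190 went from 42.9, 44.3 and 46.4 FPKM to 3.44, 3.68 and 1.92 FPKM (log2 fold change -3.59 ± 0.27, adjusted p = 7.75e-05). Cz16g13070 went from 67.0, 68.4 and 73.3 FPKM to 6.48, 5.12 and 5.0 FPKM (-3.33 ± 0.15, adjusted p = 1.49e-05). Of the UROD transcripts Cz16g13070 held 61.0% at 0 h and 65.3% at 6 h.

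The last 2 enzymes before protoporphyrin IX kept much more of their transcripts. Coproporphyrinogen III oxidase (CPOX) was encoded by 3 genes, and only Cz18g10090 was called, with 73.7, 73.4 and 73.1 FPKM at 0 h against 23.2, 24.2 and 27.1 FPKM at 6 h (log2 fold change -1.26 ± 0.10, adjusted p = 0.000108). Cz06g22110 had 26.5, 26.7 and 31.3 FPKM at 0 h and 36.0, 30.8 and 21.5 FPKM at 6 h. Cz01g34010 had 29.1, 37.3 and 37.0 FPKM at 0 h and 51.0, 40.7 and 24.5 FPKM at 6 h. For both of these the times overlapped and the replicate 3 library was the lowest at 6 h. Their log2 fold changes of 0.34 ± 0.22 and 0.42 ± 0.29 were not called (adjusted p = 0.204 and 0.234), and both signs turned under TPM scaling, that of Cz06g22110 also under upper-quartile scaling. Protoporphyrinogen oxidase (PPOX, Cz02g42010), which makes protoporphyrin IX, had 112, 113 and 117 FPKM at 0 h and 70.6, 64.5 and 59.5 FPKM at 6 h. It was lower in all 6 h libraries but within the fold limit (-0.51 ± 0.11, adjusted p = 0.00643). The ratio of PPOX to ALAD within a library, also chosen after the values were seen, moved from between 1.19 and 1.22 at 0 h to between 22.3 and 46.1 at 6 h. The size of the 6 h ratio is uncertain, since ALAD was then at 3.17, 2.14 and 1.29 FPKM.

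**Figure D2:**
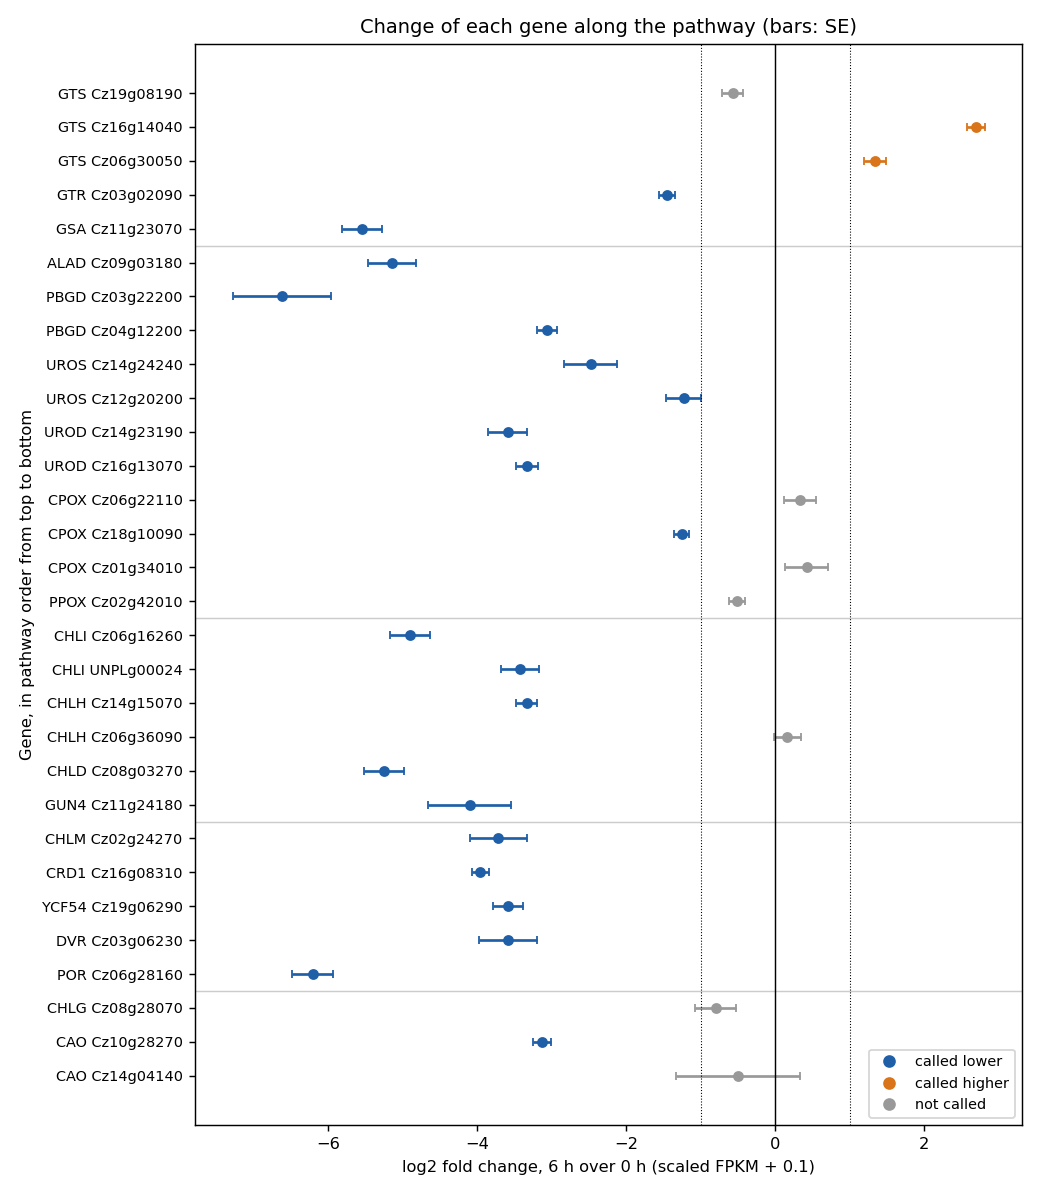
Log2 fold change (6 h over 0 h, scaled FPKM plus 0.1) of each of the 30 genes with its SE from limma, in pathway order from top to bottom, with 21 genes called lower in blue, 2 called higher in orange and 7 not called in grey. Dotted lines mark the limit of 1 in either direction. The 5 genes from CHLM to POR all lie at -3.58 or lower, and the 7 genes that were not called lie between -0.80 and 0.42.

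Magnesium chelatase puts magnesium into protoporphyrin IX and is built from the subunits CHLI, CHLD and CHLH, with GUN4 as a protein that binds porphyrins and stimulates it. Of the 6 genes, 5 were called lower, beside 26.6% of all genes tested, with a median of -3.77 over the 6. CHLD, the subunit that joins the other 2 kinds, is encoded by Cz08g03270 and had 38.0, 37.0 and 37.3 FPKM at 0 h and 0.62, 1.07 and 0.52 FPKM at 6 h. It fell by 5.25 ± 0.27 on the log2 scale (adjusted p = 2.04e-05), and its 6 h mean was the lowest of the 30 genes. The ATPase subunit CHLI had 2 genes, and both fell. Cz06g16260 went from 93.7, 95.1 and 109 FPKM to 3.09, 3.26 and 1.72 FPKM (-4.90 ± 0.26, adjusted p = 2.44e-05). UNPLg00024 went from 44.4, 43.3 and 50.6 FPKM to 3.79, 4.35 and 2.3 FPKM (-3.43 ± 0.26, adjusted p = 7.95e-05). The more abundant of the CHLI genes at 0 h was the less abundant in every library at 6 h, with a mean share of 68.3% at 0 h and 43.5% at 6 h.

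CHLH, the large subunit that binds the porphyrin, was the only subunit with a gene that was not called. Its total still fell, to 28.4% of the 0 h mean on deposited FPKM. Cz14g15070 had 112, 103 and 103 FPKM at 0 h and 7.71, 7.77 and 9.92 FPKM at 6 h, a log2 fold change of -3.34 ± 0.14 (adjusted p = 1.24e-05). The other CHLH gene, Cz06g36090, had 38.3, 34.9 and 30.4 FPKM at 0 h and 26.5, 29.1 and 38.8 FPKM at 6 h. Its values overlapped between the times and it was not called, with a log2 fold change of 0.16 ± 0.18 (adjusted p = 0.447) whose sign turned without scaling and under TPM and upper-quartile scaling. GUN4 (Cz11g24180) had 37.5, 35.0 and 43.5 FPKM at 0 h and 3.37, 2.22 and 0.66 FPKM at 6 h. It fell by 4.10 ± 0.56 on the log2 scale (adjusted p = 0.000992). The replicate 3 library was again the lowest, and without it the log2 fold change was -3.45.

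The subunits therefore stood in other proportions to each other at 6 h, which was looked at after the values had been seen. The summed CHLH transcripts were 3.59 to 3.97 times those of CHLD in the 0 h libraries and 34.4 to 93.8 times at 6 h. The size of the 6 h ratio is uncertain, since CHLD was then at 0.62, 1.07 and 0.52 FPKM. Against the summed CHLI transcripts, those of CHLH were at 0.836 to 1.09 times at 0 h and 4.84 to 12.1 times at 6 h. FPKM count fragments per length, so these ratios compare transcript levels of different genes. They say nothing of protein amounts.

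The 5 genes from Mg-protoporphyrin IX to chlorophyllide all fell, with log2 fold changes of -3.58 or lower, and 4.72% of their summed FPKM was left. All 5 were called lower, beside 26.6% of all genes tested, and no other segment had all of its genes called lower. Mg-protoporphyrin IX methyltransferase (CHLM, Cz02g24270) had 31.5, 32.3 and 36.2 FPKM at 0 h and 2.82, 2.54 and 1.03 FPKM at 6 h (-3.72 ± 0.38, adjusted p = 0.000298). CRD1 (Cz16g08310), the diiron subunit of the cyclase that forms the fifth ring, was the most abundant transcript of the pathway at 0 h, with 277, 277 and 279 FPKM. At 6 h it had 12.7, 14.1 and 16.4 FPKM, and its log2 fold change of -3.96 ± 0.11 had the smallest adjusted p of the 30 genes (7.22e-06). YCF54 (Cz19g06290), a small protein the cyclase needs, had 45.4, 43.3 and 43.2 FPKM at 0 h and 3.14, 3.42 and 2.18 FPKM at 6 h (-3.59 ± 0.20, adjusted p = 2.8e-05). At 0 h the ratio of CRD1 to YCF54 was 6.09, 6.39 and 6.45. At 6 h it was 4.04, 4.13 and 7.53, on both sides of the 0 h values. Both transcripts fell, but whether their proportion was kept cannot be told from these libraries.

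Divinyl reductase (DVR, Cz03g06230), which reduces a vinyl side group, had 96.2, 103 and 109.7 FPKM at 0 h and 11.1, 7.71 and 3.72 FPKM at 6 h. It fell by 3.58 ± 0.39 (adjusted p = 0.000372), and its 6 h libraries differed by up to 2.98-fold. Protochlorophyllide oxidoreductase (POR, Cz06g28160) is the enzyme that needs light to reduce protochlorophyllide. It had 152, 148 and 140.0 FPKM at 0 h and 0.96, 2.13 and 1.67 FPKM at 6 h, a 92.3-fold fall in mean FPKM. The log2 fold change was -6.21 ± 0.27 (adjusted p = 1.41e-05), and 1.08% of the 0 h mean was left. The light-independent enzyme for the same reaction is encoded in the plastid genome of many green algae and was not analysed here.

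The final segment had 3 genes, and 1 was called lower, beside 26.6% of all genes tested. Chlorophyll synthase (CHLG, Cz08g28070), which attaches the isoprenoid tail, had 66.1, 67.2 and 76.5 FPKM at 0 h and 44.3, 35.5 and 21.6 FPKM at 6 h. All 6 h values were lower, but the log2 fold change of -0.80 ± 0.27 (adjusted p = 0.0397) was within the limit. The call depended on the setting. The log2 fold change passed the limit and was called without scaling (-1.10), under TPM (-1.24) and upper-quartile scaling (-1.15), and without the replicate 1 library at 6 h (-1.04). Without the replicate 3 library at 6 h it was only -0.49, and the adjusted p rose to between 0.0857 and 0.108 without any one of the 0 h libraries or the replicate 2 library at 6 h. The ratio of CHLG to POR, chosen in the same way, lay between 0.436 and 0.547 in the 0 h libraries. In the 6 h libraries, where POR was near the floor, it lay between 12.9 and 46.1.

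Chlorophyllide a oxygenase (CAO), which makes the b form of the pigment, was encoded by 2 genes. Cz10g28270 had 78.1, 76.3 and 76.8 FPKM at 0 h and 6.22, 7.05 and 7.81 FPKM at 6 h, and fell by 3.14 ± 0.12 (adjusted p = 1.11e-05). Cz14g04140 had 46.9, 40.8 and 29.5 FPKM at 0 h and 7.18, 17.7 and 81.3 FPKM at 6 h. The 6 h libraries of this gene spanned 11.3-fold, the widest range of the 30 genes, with 2 below and 1 above all 0 h libraries. Its log2 fold change of -0.50 ± 0.83 was not called (adjusted p = 0.61). Without the replicate 3 library at 6 h it was -1.43 and was called lower, and without the replicate 1 library at 6 h it was 0.28. Its direction at 6 h thus rests on single libraries.

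In 8 steps with more than 1 gene, the isogenes were set against each other within each library, which removes the scaling between libraries. There were 12 pairs, and for 10 of them the ratios did not overlap between the times, which gives the smallest exact permutation p that 3 against 3 libraries allow (two-sided p = 0.1, 0.12 after Benjamini-Hochberg adjustment over the 12 pairs). No pair could thus pass a threshold of 0.05. In CHLH, Cz14g15070 was 2.93 to 3.40 times as abundant as Cz06g36090 at 0 h and 0.257 to 0.293 times at 6 h, a shift of 11.3-fold with little spread within either time. In GTS, Cz19g08190 was 3.51 to 3.75 times as abundant as Cz16g14040 at 0 h and 0.351 to 0.402 times at 6 h. The share of Cz16g14040 in the GTS transcripts went from 16.9% to 52.8%. In PBGD the ratio of Cz03g22200 to Cz04g12200 went from between 1.30 and 1.49 to between 0.0392 and 0.213. The difference between the log2 fold changes of the PBGD genes was -3.56, and -2.75 without the replicate 3 library at 6 h, in which Cz03g22200 was at 0.14 FPKM.

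The ratios overlapped for 2 pairs. These were the UROD pair, whose log2 fold changes differed by 0.26 (exact p = 0.4), and the CPOX genes Cz06g22110 and Cz01g34010, which differed by 0.08 (exact p = 0.7). Isogenes can share reads where their sequences are alike, and since no sequence was at hand, how reads were divided between them was not tested.

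As step totals on deposited FPKM, the summed GTS transcripts were higher at 6 h (168% of the 0 h mean), and the totals of all other steps had a lower mean. The GTS total joins genes that the list labels differently and that may also serve protein synthesis. CPOX kept 68.3%, PPOX 56.8%, CHLG 48.3% and CAO 36.5%, the last with 13.4, 24.8 and 89.1 FPKM at 6 h. On scaled FPKM the log2 ratios of these totals were 1.06 for GTS, -0.24 for CPOX, -0.50 for PPOX, -0.74 for CHLG and -1.15 for CAO. GTR kept 29.7%, CHLH 28.4% and UROS 20.6%. Every other step kept under 10%, from 7.49% for UROD down to 1.08% for POR. Without a test between segments, the sums left were 46.2% for glutamate to 5-aminolevulinate, 28.1% for the steps to protoporphyrin IX, 13.5% for magnesium chelation, 4.72% for the steps to chlorophyllide and 41.0% for the final segment. Of the 12 steps with 1 gene, 10 genes were called lower, and of the 18 genes in steps with isogenes, 11 were. Of all genes tested, 26.6% were called lower.

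**Figure D3:**
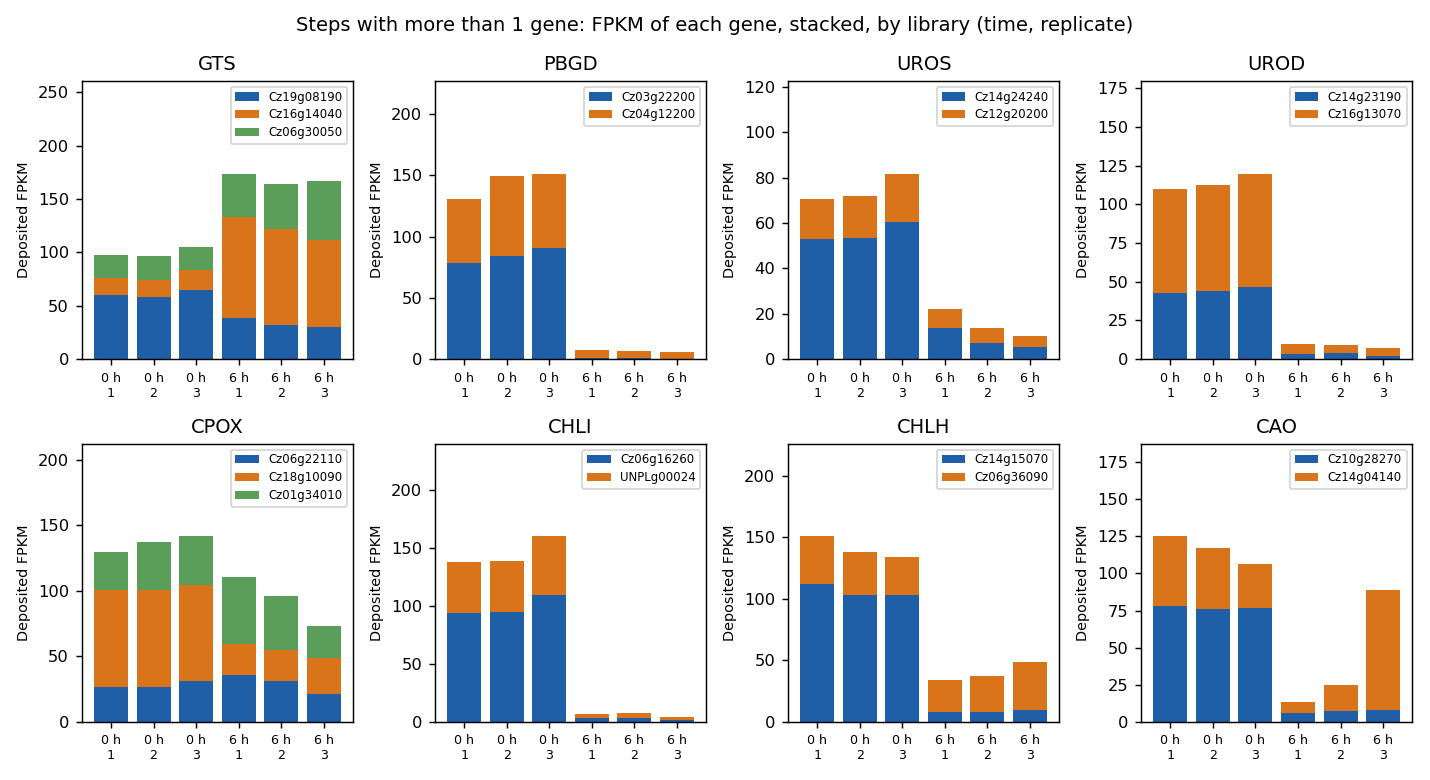
Deposited FPKM of the genes of each of the 8 steps with more than 1 gene, stacked, with 1 bar for each library (3 at 0 h, 3 at 6 h) and axes that start at 0. The GTS total is higher in all 3 libraries at 6 h, the second CHLH gene (Cz06g36090) makes up most of the CHLH total at 6 h, and the CAO total at 6 h differs from 13.4 to 89.1 FPKM between replicates.

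The spread between replicates was larger at 6 h than at 0 h for 29 of the 30 genes. The SD of log2 values over 3 libraries had a median of 0.08 at 0 h and 0.45 at 6 h. At 6 h the replicate 3 library was the lowest of the 3 for 20 of the 30 genes, among them 14 of the 21 called lower, and the replicate 1 library was the highest for 16. Over the 30 genes the residual SD ranged from 0.058 to 0.11 in the 0 h libraries and 0.49, 0.23 and 0.61 in the replicate 1, 2 and 3 libraries at 6 h, beside 0.17 to 0.20 and 0.54, 0.29 and 0.63 over all genes. All the same, the median of the 30 genes against the 0 h mean was -3.02, -3.16 and -3.10 in the 6 h libraries, and leaving out any one library gave 21 or 22 genes called lower and 2 called higher. The libraries listed 14682 to 14697 genes at 0 h and 14233 to 14433 at 6 h.

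Further sections of the same list hold the genes around the pathway. In the section for heme, 1 of 6 genes (16.7%) was called higher and none lower, beside 20.0% and 26.6% of all genes tested. All 6 log2 fold changes were above 0, beside 6809 of the 13886 genes tested, and their median was 0.72. The called gene encodes uroporphyrinogen III C-methyltransferase (SUMT, Cz14g07090), the first enzyme of the siroheme branch, and had 12.7, 11.8 and 15.0 FPKM at 0 h and 249, 224 and 175 FPKM at 6 h (log2 fold change 4.33 ± 0.17, adjusted p = 1.18e-05). The other SUMT gene, Cz05g21010, was not called (0.06 ± 0.22, adjusted p = 0.806), and on deposited FPKM its 6 h mean was the lower one, at 86.5% of that at 0 h. Ferrochelatase (FC, Cz16g21260), which competes with magnesium chelatase for protoporphyrin IX and was picked out after its values were seen, had 83.4, 77.4 and 80.5 FPKM at 0 h and 121, 109 and 98.9 FPKM at 6 h. It was higher in all 6 h libraries, but its log2 fold change of 0.75 ± 0.12 was within the limit (adjusted p = 0.00173). At the branch point its transcripts stood at 2.09 to 2.19 times those of CHLD at 0 h and at 102 to 195 times at 6 h. CHLD was at only 0.62, 1.07 and 0.52 FPKM at 6 h, so the size of this ratio is uncertain. Against the CHLI total, FC stood at 0.503 to 0.604 times at 0 h and 14.4 to 24.6 times at 6 h. Against the CHLH total, FC stood at 0.553 to 0.602 times at 0 h and 2.03 to 3.52 times at 6 h. Of the heme genes, 2 that are both annotated as GUN2 (UNPLg00465 and UNPLg00457) carried identical values in all 6 libraries and cannot be told apart. The median of 0.72 is the value of these 2 entries, and on deposited FPKM their log2 ratio was 0.42.

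In the section for chlorophyll degradation, 1 of 19 genes was called higher, 4 were called lower and 14 were not called, with a median of -0.36. These are 5.26% higher and 21.1% lower, beside 20.0% and 26.6% of all genes tested. Lower calls were thus no more frequent in this list than among all genes. The gene called higher encodes pheophytinase (PPH, Cz10g19170), known in Arabidopsis to remove the phytol tail from pheophytin, and had 29.6, 25.5 and 28.6 FPKM at 0 h and 371, 309 and 226 FPKM at 6 h (log2 fold change 3.71 ± 0.20, adjusted p = 2.57e-05). The deepest falls were in genes for pheophorbide a oxygenase (PAO), which opens the ring in Arabidopsis. Cz08g13200 had 111, 99.8 and 96.3 FPKM at 0 h and 14.7, 18.8 and 26.0 FPKM at 6 h (-2.09 ± 0.21, adjusted p = 0.000264). Cz14g19030 had 109, 107 and 86.3 FPKM at 0 h and 18.6, 38.7 and 41.2 FPKM at 6 h (-1.38 ± 0.31, adjusted p = 0.00832). The sums of deposited FPKM over the 19 genes overlapped between the times, with 93.6% of the 0 h mean left. On scaled FPKM the log2 ratio of the means was 0.21, so the direction of this sum depends on the scaling.

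The section for light-harvesting complexes, the proteins that carry most of the chlorophyll, had 22 genes, of which 21 were tested. Of these 16 (76.2%) were called lower and 3 (14.3%) higher, beside 26.6% and 20.0% of all genes tested. The median was -6.88, and 1.88% of the summed FPKM was left. LHC19 (Cz15g09060) had the largest fall, from 5368, 5961 and 6140 FPKM to 17.6, 11.5 and 4.15 FPKM (-8.94 ± 0.51, adjusted p = 3.01e-05). It was followed by LHC7 (Cz15g17110, -8.22 ± 0.39, adjusted p = 1.64e-05) and by LHCB5 (Cz08g11160, -7.88 ± 0.40, adjusted p = 2.01e-05). The biosynthesis genes thus lay between the sections for degradation and light harvesting in their medians, which is a description of these lists and was not tested.

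**Figure D4:**
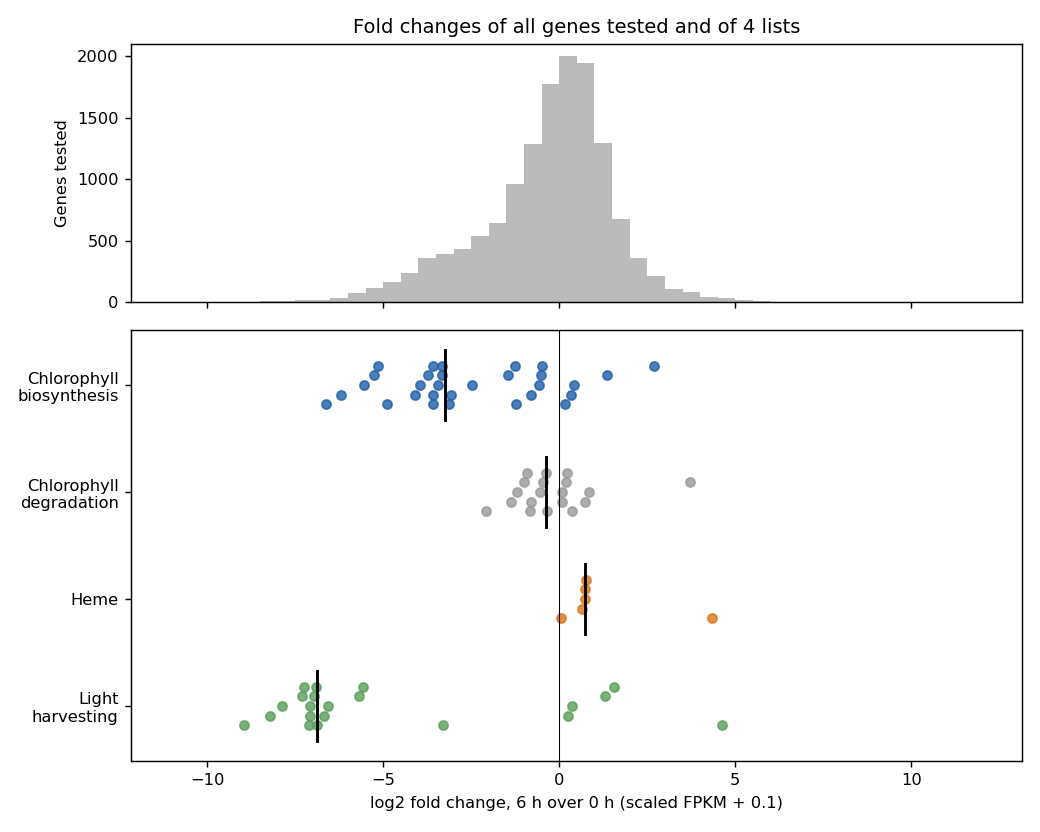
Log2 fold change (6 h over 0 h, scaled FPKM plus 0.1) of all 13886 genes tested, as a histogram (top), and of the genes of 4 lists, each point 1 gene and each black bar the median of a list (bottom). The medians are -3.23 for biosynthesis, -0.36 for degradation, 0.72 for heme and -6.88 for light harvesting.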

How the data were processed

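RNA was sequenced on the BGISEQ-500 platform. Per the paper's methods the authors aligned reads with TopHat and computed the deposited FPKM with Cufflinks, while the submitters' processing notes name HISAT, Bowtie2 and RSEM, and which of these made the values is not settled. Genome build, strandedness and the reads behind a single value were not given in the sources used here. Values have 2 decimals, and a gene absent from a library was taken as 0. Libraries were divided by median-of-ratios factors (0.884 to 1.13), and log2(scaled FPKM + 0.1) of the 13886 genes that averaged 1 FPKM or more at 0 h or at 6 h was fitted with limma 3.58.1 in R 4.3.3 (mean-variance trend, time as the only term, two-sided, Benjamini-Hochberg adjustment). The script was tested on simulated data. The genes and lists were chosen with earlier results of these data known, so p-values were adjusted over all genes only and lists are described by counts and medians. Named were all 30 genes and, of each other list, the 3 called genes with the largest change whose libraries do not overlap (1 for heme). The other heme genes named were chosen after their values were seen, as were the ratios between different steps or subunits within a library. No sequences were used here.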

Additional observations from a re-analysis of the deposited data

How the results depend on the processing

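The 21 lower calls were kept under no scaling (22 in all), TPM (23), scaling by the upper quartile (22), a pseudocount of 1 or of 0.01, all genes unfiltered, only genes averaging 10 FPKM or more, library weights and no mean-variance trend. With the limit inside the test (limma treat) 19 were called lower, and with no limit 24. Only 1 gene was called higher under TPM, upper-quartile scaling and treat. The median of the 30 genes was -3.54 without scaling, -3.67 with TPM, -3.59 with upper-quartile scaling and -3.07 with a pseudocount of 1, and -3.24 to -3.15 with 1 library left out. The median of all genes moved along, to -0.34, -0.47 and -0.39 under the 3 scalings, and so did the split of calls over all genes. Higher calls made up 42.9% of all calls in the main setting, 30.1% without scaling, 25.5% with TPM (1624 genes higher) and 28.4% with upper-quartile scaling (1802). With treat, 1384 genes were called higher and 2417 lower, and with no limit 4665 were called higher. Signs turned only for genes that were not called: Cz06g22110 (-0.10 with TPM, -0.017 with upper-quartile scaling), Cz01g34010 (-0.018 with TPM), Cz06g36090 (-0.15 without scaling, -0.28 with TPM, -0.19 with upper-quartile scaling) and Cz14g04140 (-1.43 to 0.28 with 1 library left out). Without the replicate 3 library at 6 h, 20 of the 21 lower calls were kept.

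Replicate numbers are shared between the times, but same-numbered libraries did not deviate together (correlations of residuals -0.30, -0.11 and -0.49 over all genes). Residuals of 3 libraries per time cannot settle whether the numbers pair the cultures. The sample titles give only the time and the replicate number, so pairing remains unknown. With the replicate number as a block, 21 of the 30 genes were called lower and 2 higher, and of all genes 3521 were called lower and 2696 higher. The adjusted p of CHLG (Cz08g28070) was then 0.0696.

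FPKM carry no counts, so no counting interval was computed, and the values of genes below about 1 FPKM at 6 h, such as CHLD, depend most on the pseudocount.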
